A study of Mus musculus with 15 samples.

Results

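Genes that encode enzymes of histone methylation and acetylation were followed through the zygote and 2-cell stages in mouse embryos with and without maternal USP16, the protease that removes the single ubiquitin of histone H2A. The members were taken by gene symbol: all listed genes whose symbol begins with Kdm, Setd, Mll, Kmt2, Suv, Ehmt, Prmt, Hdac, Sirt, Kat2, Kat5, Kat6, Kat7, Kat8 or Myst, plus Whsc1, Nsd1, Dot1l, Ep300 and Crebbp, leaving out Kdm2b and symbols that begin with Mllt. This gave 69 of the 14392 listed genes, among them 24 methyltransferases for lysine or arginine, 15 demethylases, 17 deacetylases, 9 acetyltransferases and 4 SET domain proteins with other or unsettled substrates. The symbols are those of an older annotation. Mll2, Mll3 and Mll5 are now called Kmt2d, Kmt2c and Kmt2e. Suv420h1, Suv420h2 and Setd8 are Kmt5b, Kmt5c and Kmt5a, Whsc1 is Nsd2, Prmt10 is Prmt9, and Myst1 to Myst4 are Kat8, Kat7, Kat6a and Kat6b.

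Histone methyltransferases and acetyltransferases place marks on the tails of histones, and demethylases and deacetylases take them off. Acetylation and methylation of lysine 4 of histone H3 go with transcription, while methylation of H3 lysine 9 or lysine 27 goes with silencing, and H4 lysine 20 methylation with chromatin compaction. In the mouse the fertilized egg is transcriptionally almost silent and lives on maternal transcripts, and the major wave of zygotic genome activation (ZGA) comes at the 2-cell stage, when both parental sets of chromatin are also being remodelled.

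RNA was measured in 8 libraries, each from a pool of 10 embryos, with 2 libraries for every combination of genotype (WT or cKO) and stage (zygote or 2-cell). The WT embryos came from Usp16 +/+ females, and cKO denotes embryos of Usp16 fl/fl;Gdf9-Cre females, both on a C57BL/6 background. Gdf9-Cre acts in the oocyte, so the deletion is maternal, and a cKO embryo sired by a WT male keeps an intact paternal allele. Embryos were cultured in KSOM medium, and cDNA was primed with oligo-dT by the Smart-seq2 method, which does not keep the strand of the transcript.

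The values were FPKM (fragment numbers scaled by transcript length and by the size of the library), with all values under 1 raised to a floor of 1 before deposit. A gene at 1.00 FPKM is therefore at or under the floor, and a fold against the floor is a lower bound. FPKM are relative to the whole library and give no read counts, so the depth is unknown, and a change in RNA per embryo cannot be told apart from a change in the number of embryos that carry a transcript. Differences were tested with limma on log2(FPKM + 1), which understates the change of low genes, and adjusted p denotes its Benjamini-Hochberg value over all 14392 genes. A gene was called at an adjusted p under 0.05. Beside this, a gene was counted as past 3-fold when the means of both groups differed by more than 3-fold, the threshold of the study. With 2 libraries a group, an exact permutation test of a single gene cannot give a two-sided p under 0.333.

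Usp16 was at 184 and 187 FPKM in WT zygotes and at 16.8 and 22.0 in cKO zygotes. At the 2-cell stage it was at 168 and 183 FPKM in WT and at 168 and 84.8 in cKO embryos, where transcripts of the paternal allele are also counted, so that the gene checks the labels in zygotes only. The sum of FPKM lay between 547752 and 593317 in 7 libraries and was 770989 in cKO 2-cell replicate 2. All 8 oocyte and embryo markers were listed, with 0 called higher and 6 lower in WT 2-cell embryos against WT zygotes, and 1 higher and 4 lower in cKO against WT 2-cell embryos. Their summed level was 15733 to 17537 FPKM in zygotes and 6939 to 11297 in 2-cell embryos. The 5 of 7 listed 2-cell markers summed to 201 to 332 FPKM in zygotes and to 1282 to 1584 in 2-cell embryos, with 5 higher in WT across the stages and 4 lower in cKO than in WT 2-cell embryos. Of 10 cumulus and granulosa cell markers, 3 were listed, with a summed level of 24.3 to 28.7 FPKM in zygotes, 4.38 and 10.3 in WT and 3 and 3.32 in cKO 2-cell embryos. Of these, Foxl2 and Tnfaip6 were at the floor in all 4 zygote libraries, and Cyp19a1, at 22.3 to 26.7 FPKM, carried the zygote level and was the 1 marker called lower in WT. Its part in the differences between the stages was not tested.

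The cKO 2-cell group stood apart in its spread. Its replicates differed by more than 3-fold for 16 of the 69 members and for 13.3% of all genes, against 0 members in each of the other 3 groups. All 16 members were lower in replicate 2, while of all genes this far apart 1114 were lower and 798 higher in it. The counts of calls on this group are therefore also given without either of its libraries, and those between the 2-cell genotypes with a weight for each group.

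**Figure D1:**
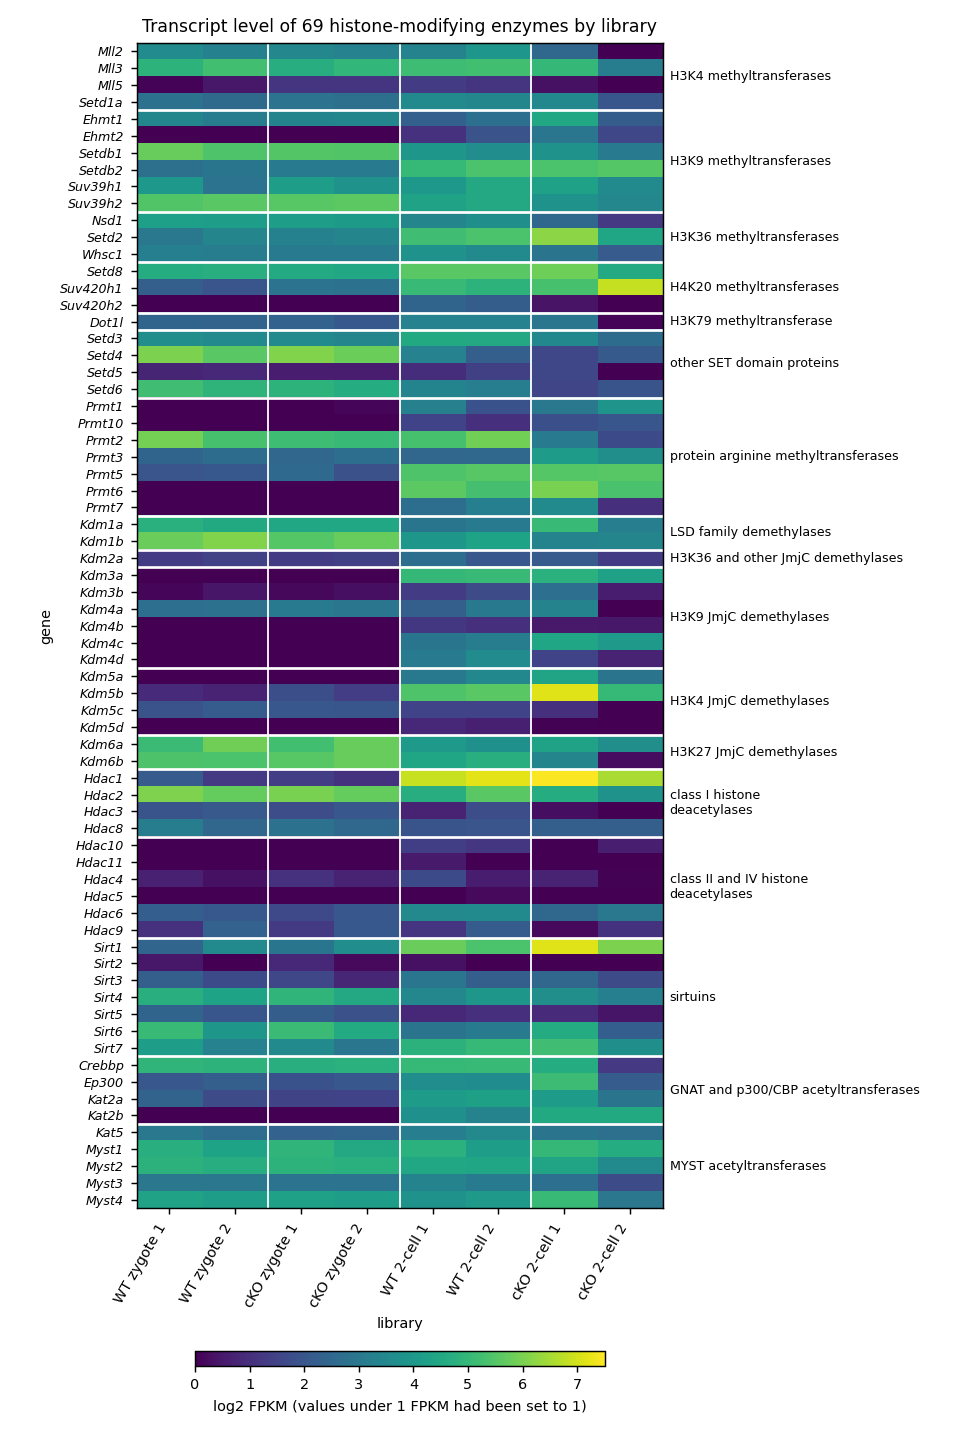
Transcript level of the 69 enzyme genes (rows, grouped by class) in the 8 libraries (columns), on a log2 FPKM colour scale that starts at the floor of 1 FPKM. The 4 zygote columns look alike, the 2-cell columns hold fewer genes at the floor, and cKO 2-cell replicate 2 is darker (lower) than replicate 1 in many rows.

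Promoters are shown for 4 members on which the comparisons below turn. Suv420h2 and Kdm4d were at the floor in zygotes, rose in WT 2-cell embryos and were low in cKO 2-cell embryos, while Prmt5 and Prmt6 were high at the 2-cell stage in both genotypes. Each sequence is the 250 bases before the gene's start in RefSeq on GRCm38.p6, read 5′ to 3′ on the gene's strand. Capitals mark CCAAT on either strand, the letters of the box bound by NF-Y, or in Prmt6 AAGGNCA, the letters of a nuclear receptor site.
Suv420h2 (chr7:4739877-4740126, + strand): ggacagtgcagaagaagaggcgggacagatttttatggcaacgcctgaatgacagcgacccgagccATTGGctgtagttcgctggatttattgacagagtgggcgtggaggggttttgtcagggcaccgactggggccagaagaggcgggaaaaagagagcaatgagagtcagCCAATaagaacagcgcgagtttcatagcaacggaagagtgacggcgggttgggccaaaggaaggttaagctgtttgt
Kdm4d (chr9:14500483-14500732, − strand): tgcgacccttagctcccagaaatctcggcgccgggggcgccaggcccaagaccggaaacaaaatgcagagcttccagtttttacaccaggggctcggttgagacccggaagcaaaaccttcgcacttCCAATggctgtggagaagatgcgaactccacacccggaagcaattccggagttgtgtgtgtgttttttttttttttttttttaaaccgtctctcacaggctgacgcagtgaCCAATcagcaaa
Prmt5 (chr14:54517471-54517720, − strand): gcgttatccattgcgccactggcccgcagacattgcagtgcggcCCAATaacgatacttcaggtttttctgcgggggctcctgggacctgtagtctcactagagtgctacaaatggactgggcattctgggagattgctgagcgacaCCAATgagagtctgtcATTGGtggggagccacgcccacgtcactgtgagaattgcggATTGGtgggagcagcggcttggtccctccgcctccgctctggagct
Prmt6 (chr3:110251000-110251249, − strand): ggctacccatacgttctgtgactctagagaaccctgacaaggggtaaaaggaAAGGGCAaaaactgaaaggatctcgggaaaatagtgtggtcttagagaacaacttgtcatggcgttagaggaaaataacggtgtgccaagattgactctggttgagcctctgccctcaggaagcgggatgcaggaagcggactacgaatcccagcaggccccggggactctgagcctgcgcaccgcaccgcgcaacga
CCAAT or its complement ATTGG occurred 2 times before Suv420h2, 2 times before Kdm4d and 4 times before Prmt5, and AAGGNCA occurred 1 time before Prmt6. CCAAT was found in 33.8% of the 32851 RefSeq promoters of this length and in 32 of the 73 promoters of members, or 43.8%. The Sp-type letters GGGCGG, or CCGCCC on the other strand, were in 32.7% of all promoters and in 46 of 73 member promoters, or 63.0%, but in none of the 4 shown. AAGGNCA was in 17.5% of all and in 8 of 73 member promoters. In all, 57 of the 69 members had an entry, some with several starts. The median number of CpG dinucleotides was 17 in member promoters and 6 in all promoters, and 13 or 14 in the 4 shown. CCAAT was thus present both before members that were low in cKO 2-cell embryos and before one that was not, and these counts of letters were not tested against the expression values.

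In WT zygotes, the members with the highest levels were a demethylase, a deacetylase, a SET domain protein and an arginine methyltransferase. Kdm1b, a lysine 4 demethylase needed for maternal imprints, had 61.1 ± 8.86 FPKM (SD, n = 2). Hdac2, a class I deacetylase, had 59.8 ± 8.96, Setd4 had 56.6 ± 12.2, Prmt2, a weakly active arginine methyltransferase, 50.1 ± 14.7, and Setdb1, an H3 lysine 9 methyltransferase of transposon silencing, 48.5 ± 7.897. Neighbours in this order differed by less than their SDs. Kdm6a, Suv39h2 and Kdm6b followed, at 46.7 ± 16.9, 46.1 ± 2.86 and 42.00 ± 0.317. At the other end, 15 members, or 21.7%, were at the floor in all 4 zygote libraries, against 26.2% of all genes. They included 3 arginine methyltransferases (Prmt6, Prmt7 and Prmt10), 4 of the 6 H3 lysine 9 JmjC demethylases (Kdm3a, Kdm4b, Kdm4c and Kdm4d), Kdm5a, Kdm5d, Ehmt2, Suv420h2, Kat2b and the deacetylases Hdac5, Hdac10 and Hdac11.

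Between cKO and WT zygotes, the question was whether maternal deletion of Usp16 changes the stock of transcripts for these enzymes before ZGA. No member was called in either direction, with 0.0208% of all genes called higher and 0% lower. No member was past 3-fold, against 0.104% of all genes higher and 0.0486% lower. Without adjustment, limma gave 1 member higher and 0 lower with a p below 0.05, and the group means of 65 of the 69 members lay within 1.5-fold of each other. The cKO zygote libraries lay entirely above the WT zygote libraries for 7 members and entirely below for 16, or 10.1% and 23.2%. Of all genes it was 15.8% and 10.2%. Whether the members differ from all genes in this was not tested.

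The member with the smallest p was Mll5, a SET domain protein of the MLL family without clear methyltransferase activity. Mll5 was at 1.06 and 1.405 FPKM in WT zygotes, 2.201 and 2.25 in cKO zygotes, 2.54 and 2.22 in WT 2-cell embryos and 1.25 and 1.00 in cKO 2-cell embryos. Both cKO zygote libraries were above both WT zygote libraries (log2 fold change 0.54, SE 0.12, adjusted p = 0.884). The next smallest p values were those of Kat5, the acetyltransferase of the TIP60 complex (log2 fold change -0.37, SE 0.23, adjusted p = 1), and of Sirt3, a mitochondrial deacetylase (log2 fold change -0.57, SE 0.36, adjusted p = 1). These values miss the threshold and do not show that the levels were equal.

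From WT zygotes to WT 2-cell embryos, the comparison asks which of these enzymes have higher or lower transcript levels across ZGA. The values do not separate new transcription from changes in maternal transcripts. Of the 69 members, 24 were called higher and 7 lower, or 34.8% and 10.1%, and 38 were not called. Of all genes, 34.2% were called higher and 15.5% lower, so the share of members called higher was near that of all genes. Past 3-fold were 17 members higher and 7 lower, against 26.0% and 8.78% of all genes. The WT 2-cell libraries lay entirely above the zygote libraries for 39 members and entirely below for 19, against 49.4% and 26.4% of all genes. The median log2 fold change was 0.45 over the members and 0.27 over all genes. Scaling each library by its median ratio lowered the median of all genes to 0.03 and that of the members to 0.17. It gave 17 members higher and 13 lower, against 25.2% and 19.0% of all genes, and the 17 had all been called higher before. The 15 members at the floor in all zygote libraries are listed only through their 2-cell values and could only rise, so the 12 of them among the calls are no support for a direction. Of all 3770 such genes, 2026 were called higher.

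**Figure D2:**
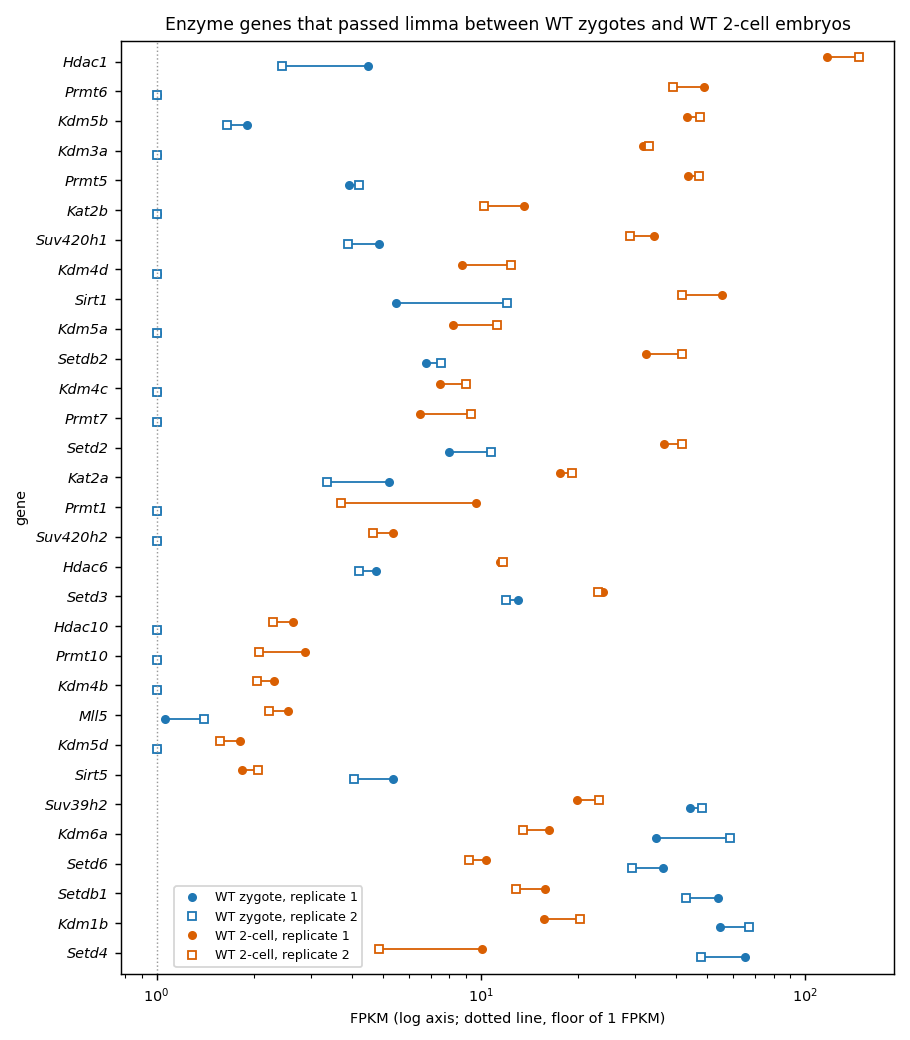
FPKM on a log axis of the 31 enzyme genes that passed limma between WT zygotes (blue) and WT 2-cell embryos (orange), with replicate 1 as filled circles and replicate 2 as open squares joined by a line. The 24 genes at the top rose, among them Prmt1 and the 12 that were at the floor (dotted line) in all zygote libraries, and the 7 at the bottom fell. No gene shown has overlapping groups.

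The H3 lysine 4 methyltransferase family had 4 members. Of these, 1 was called higher in WT embryos, Mll5 (log2 fold change 0.60, SE 0.12, adjusted p = 0.00757), the member without clear activity, against 34.2% of all genes. The exons of Mll5 overlap those of Srpk2 on the other strand. The summed level of the family was 49.2 and 54.7 FPKM in zygotes and 61.2 and 65.8 in 2-cell embryos. Mll3, the catalytic subunit of an enhancer methyltransferase complex, was the highest of the class, at 28.8 and 37.3 FPKM in WT zygotes, 25.3 and 31.1 in cKO zygotes, 36.2 and 37.5 in WT 2-cell embryos and 31.7 and 9.13 in cKO 2-cell embryos. Its WT levels at the stages overlap, and replicate 2 of the cKO 2-cell group lies below all other libraries. Mll2, its paralogue, was at 12.4 and 9.86 FPKM in WT zygotes, 11.03 and 10.02 in cKO zygotes, 10.3 and 15.3 in WT 2-cell embryos and 5.71 and 1.00 in cKO 2-cell embryos. Setd1a, which writes bulk promoter methylation, was at 7.04 and 6.08 FPKM in WT zygotes and 12.1 and 10.9 in WT 2-cell embryos, and was not called.

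The H3 lysine 9 methyltransferases changed in both directions. Setdb2, a relative of Setdb1, rose 5.16-fold, from 6.79 and 7.55 to 32.4 and 41.6 FPKM. Its cKO libraries were at 8.36 and 8.49 in zygotes and at 41.6 and 45.7 in 2-cell embryos, and it was not called between the genotypes at either stage. Setdb1 fell 3.40-fold and was at 54.05 and 42.9 FPKM in WT zygotes, 44.7 and 44.5 in cKO zygotes, 15.7 and 12.8 in WT 2-cell embryos and 14.04 and 8.28 in cKO 2-cell embryos. Suv39h2, an enzyme of constitutive heterochromatin, was at 44.1 and 48.1 FPKM in WT zygotes, 46.7 and 48.9 in cKO zygotes, 19.9 and 23.1 in WT 2-cell embryos and 14.1 and 11.04 in cKO 2-cell embryos. Both fell in WT (log2 fold change -1.69, SE 0.28, adjusted p = 0.00368 for Setdb1, log2 fold change -1.07, SE 0.20, adjusted p = 0.00553 for Suv39h2), and for both genes the exons overlap those of a gene on the other strand, Lass2 and Dclre1c, from which unstranded reads cannot be told apart. The same holds for Kdm5a (Ccdc77), Whsc1 (Whsc2), Kdm6b (1700064E03Rik), Kat5 (Rnaseh2c), Myst1 (Prss8) and Sirt3 (Psmd13 and Ric8), and, with unnamed gene models, for Suv39h1, Suv420h1, Sirt1, Prmt3 and Prmt7. Ehmt2, which with Ehmt1 writes euchromatic dimethylation, was at the floor in all 4 zygote libraries, at 2.11 and 3.78 FPKM in WT 2-cell embryos and at 7.76 and 3.01 in cKO 2-cell embryos. It was called higher in cKO embryos (log2 fold change 1.57, SE 0.38, adjusted p = 0.0145) but not in WT (log2 fold change 0.95, SE 0.38, adjusted p = 0.0858), and the difference between the genotypes at the 2-cell stage was not called. Suv39h1 and Ehmt1 were not called in WT, and Ehmt1 was at 22.1 and 4.60 FPKM in the cKO 2-cell libraries.

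Among writers on H3 lysine 36, Setd2, the sole enzyme of bulk trimethylation, rose 4.18-fold. Setd2 was at 7.99 and 10.8 FPKM in WT zygotes, 9.83 and 10.8 in cKO zygotes, 36.6 and 41.7 in WT 2-cell embryos and 73.02 and 21.6 in cKO 2-cell embryos. The WT libraries do not overlap (log2 fold change 1.96, SE 0.53, adjusted p = 0.023), but the call was lost under sum scaling or when any zygote or WT 2-cell library was left out. The related Nsd1 and Whsc1, which write dimethylation, were not called in WT embryos. Nsd1 was at 18.97 and 18.2 FPKM in WT zygotes, 18.2 and 17.04 in cKO zygotes, 10.6 and 13.4 in WT 2-cell embryos and 5.85 and 2.35 in cKO 2-cell embryos. Whsc1 was at 9.405 and 9.096 FPKM in WT zygotes, 8.67 and 8.36 in cKO zygotes, 14.3 and 11.8 in WT 2-cell embryos and 7.46 and 4.47 in cKO 2-cell embryos. Dot1l, the only H3 lysine 79 methyltransferase, was at 5.33 and 5.28 FPKM in WT zygotes, 5.14 and 4.22 in cKO zygotes, 9.96 and 10.01 in WT 2-cell embryos and 7.77 and 1.06 in cKO 2-cell embryos, and was not called in any comparison.

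The 3 H4 lysine 20 methyltransferases all had higher WT 2-cell than WT zygote values, as did 49.4% of all genes, and 2 were called, against 34.2% of all genes. Of the 2, Suv420h2 started at the floor and could only rise, so its call is no support for a direction. Suv420h1, which writes dimethylation, rose 7.21-fold (log2 fold change 2.60, SE 0.48, adjusted p = 0.00526). It was at 4.84 and 3.91 FPKM in WT zygotes, 7.25 and 6.99 in cKO zygotes, 34.2 and 28.9 in WT 2-cell embryos and 39.5 and 116 in cKO 2-cell embryos. The cKO 2-cell replicate 2 holds the highest value. Suv420h2, the second enzyme of this step, was at the floor in all 4 zygote libraries, at 5.37 and 4.65 FPKM in WT 2-cell embryos and at 1.33 and 1.00 in cKO 2-cell embryos. It rose at least 5.01-fold in WT embryos (log2 fold change 1.59, SE 0.11, adjusted p = 0.000195), and lies on chromosome 7 of mm9 from 4691717 to 4699116 on the + strand. In cKO embryos it was near the floor at both stages, and was not called between the stages (log2 fold change 0.11, SE 0.11, adjusted p = 0.48). Setd8, the monomethyltransferase, was at 25.2 and 25.9 FPKM in WT zygotes, 24.2 and 22.5 in cKO zygotes, 47.8 and 47.5 in WT 2-cell embryos and 57.4 and 24.1 in cKO 2-cell embryos, and was not called. A near-identical copy of its coding sequence lies elsewhere in the genome, so its reads may be shared.

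The 4 SET domain proteins with other or unsettled substrates included the member with the largest fall. Setd4 was at 65.2 and 47.9 FPKM in WT zygotes, 68.1 and 56.1 in cKO zygotes, 10.1 and 4.86 in WT 2-cell embryos and 3.03 and 4.36 in cKO 2-cell embryos. Every 2-cell library is below every zygote library, and the mean fell 7.58-fold in WT embryos (log2 fold change -2.82, SE 0.36, adjusted p = 0.00132). Setd6, which methylates non-histone proteins, was at 36.5 and 29.2 FPKM in WT zygotes, 28.8 and 25.03 in cKO zygotes, 10.4 and 9.18 in WT 2-cell embryos and 2.98 and 3.898 in cKO 2-cell embryos, and also fell in WT (log2 fold change -1.64, SE 0.23, adjusted p = 0.0017). Setd3, the actin histidine methyltransferase, was at 13.04 and 11.9 FPKM in WT zygotes, 11.7 and 10.7 in cKO zygotes, 23.8 and 22.9 in WT 2-cell embryos and 11.3 and 6.34 in cKO 2-cell embryos. It was called higher in WT (log2 fold change 0.85, SE 0.28, adjusted p = 0.0464), a call lost in 9 of 15 alternatives, and 1 near-identical copy of its coding sequence exists.

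Of the 7 protein arginine methyltransferases, 5 were called higher, 4 of them past 3-fold, and 0 lower, against 34.2% and 15.5% of all genes. Prmt6, Prmt7 and Prmt10, which are among the 5, were at the floor in all 4 zygote libraries and could only rise. Whether the class differs from other genes was not tested. After median-ratio scaling 2 remained called, Prmt5 and Prmt6. Prmt6, which writes asymmetric H3 arginine 2 methylation, was at the floor in all 4 zygote libraries, at 48.8 and 39.2 FPKM in WT 2-cell embryos and at 64.03 and 41.01 in cKO 2-cell embryos. Its WT mean rose at least 44.0-fold and its cKO mean at least 52.5-fold. The gene lies on chromosome 3 of mm9 from 110049027 to 110053916 on the − strand, and is one of the largest rises in both genotypes (log2 fold change 4.48, SE 0.28, adjusted p = 0.000136 in WT, log2 fold change 4.71, SE 0.28, adjusted p = 9.84e-05 in cKO). Prmt5, the main symmetric arginine methyltransferase, was at 3.92 and 4.21 FPKM in WT zygotes, 5.88 and 3.66 in cKO zygotes, 43.4 and 47.1 in WT 2-cell embryos and 46.2 and 46.6 in cKO 2-cell embryos. It rose 11.1-fold in WT (log2 fold change 3.19, SE 0.24, adjusted p = 0.000213) and 9.73-fold in cKO embryos, and the 4 2-cell libraries differ by less than 4 FPKM. Its promoter above holds CCAAT 4 times, and that of Prmt6 does not hold it.

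Prmt1, the main asymmetric enzyme, was at 1.00 and 1.00 FPKM in WT zygotes, 1.00 and 1.07 in cKO zygotes, 9.69 and 3.71 in WT 2-cell embryos and 8.01 and 14.6 in cKO 2-cell embryos, and rose at least 6.70-fold in WT (log2 fold change 1.83, SE 0.44, adjusted p = 0.0146). Prmt7, which makes monomethylarginine, was at the floor in all 4 zygote libraries, at 6.49 and 9.36 FPKM in WT 2-cell embryos and at 12.1 and 2.03 in cKO 2-cell embryos. It was called in WT (log2 fold change 2.14, SE 0.63, adjusted p = 0.0319), but in only 7 of 15 alternatives. Prmt10 was at the floor in all 4 zygote libraries, at 2.87 and 2.08 FPKM in WT 2-cell embryos and at 3.56 and 4.06 in cKO 2-cell embryos. Prmt3, an enzyme of ribosomal proteins, and Prmt2 were not called in WT embryos. Prmt3 was at 5.35 and 6.25 FPKM in WT zygotes, 5.603 and 6.495 in cKO zygotes, 5.58 and 5.74 in WT 2-cell embryos and 17.4 and 12.97 in cKO 2-cell embryos. Prmt2 was at 60.5 and 39.7 FPKM in WT zygotes, 36.2 and 32.9 in cKO zygotes, 39.8 and 59.7 in WT 2-cell embryos and 8.45 and 3.200 in cKO 2-cell embryos. The WT stages overlap for both, and their cKO 2-cell libraries stand apart from the rest, Prmt3 above and Prmt2 below.

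The erasers of methylation are given by family and substrate. Of the 2 LSD family amine oxidases, 1 was called lower at the 2-cell stage in WT, and both were after median-ratio scaling, against 15.5% and 19.0% of all genes. Kdm1b was at 54.9 and 67.4 FPKM in WT zygotes, 45.6 and 53.9 in cKO zygotes, 15.7 and 20.3 in WT 2-cell embryos and 10.3 and 10.6 in cKO 2-cell embryos, and fell 3.40-fold in WT (log2 fold change -1.72, SE 0.22, adjusted p = 0.00125). Kdm1a, the H3 lysine 4 demethylase of the CoREST complex, was at 26.97 and 23.7 FPKM in WT zygotes, 22.7 and 22.8 in cKO zygotes, 7.59 and 8.57 in WT 2-cell embryos and 33.97 and 9.19 in cKO 2-cell embryos. Its WT mean was 3.14-fold lower at the 2-cell stage but was not called (log2 fold change -1.54, SE 0.54, adjusted p = 0.0561), and both cKO 2-cell replicates, 3.69-fold apart, are above the WT 2-cell libraries.

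Of the 6 H3 lysine 9 JmjC demethylases, 4 were called higher in WT and 0 lower, against 34.2% and 15.5% of all genes. The counts were the same under median-ratio scaling. All 4 were at the floor in all 4 zygote libraries and could only rise, so the count is no support for a direction. Kdm3a, which removes mono- and dimethylation, was at the floor in all 4 zygote libraries, at 31.7 and 33.03 FPKM in WT 2-cell embryos and at 27.5 and 19.5 in cKO 2-cell embryos. It rose at least 32.4-fold (log2 fold change 4.06, SE 0.24, adjusted p = 0.000122). Kdm4c, which removes trimethylation, was at the floor in all 4 zygote libraries, at 7.47 and 8.99 FPKM in WT 2-cell embryos and at 21.1 and 16.7 in cKO 2-cell embryos. Its WT rise was at least 8.23-fold. Kdm4d, a short paralogue of Kdm4c, was at the floor in all 4 zygote libraries, at 8.74 and 12.4 FPKM in WT 2-cell embryos and at 2.84 and 1.65 in cKO 2-cell embryos. It lies on chromosome 9 of mm9 from 14266992 to 14304926 on the − strand, and rose at least 10.6-fold in WT (log2 fold change 2.51, SE 0.24, adjusted p = 0.000429). In cKO embryos it was not called between the stages (log2 fold change 0.67, SE 0.24, adjusted p = 0.055). Kdm4b, also called higher in WT, reached only 2.31 and 2.04 FPKM. Kdm3b and Kdm4a were not called in WT.

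Of the 4 H3 lysine 4 JmjC demethylases, 3 were called higher in WT, against 34.2% of all genes. Of the 3, Kdm5a and Kdm5d were at the floor in all 4 zygote libraries and could only rise. Kdm5b was at 1.903 and 1.65 FPKM in WT zygotes, 3.48 and 2.58 in cKO zygotes, 43.2 and 47.5 in WT 2-cell embryos and 139.7 and 32.6 in cKO 2-cell embryos. It rose 25.6-fold in WT (log2 fold change 4.06, SE 0.62, adjusted p = 0.00263) and 28.4-fold in cKO embryos, with 1 cKO replicate far above and 1 below WT. Kdm5a was at the floor in all 4 zygote libraries, at 8.18 and 11.3 FPKM in WT 2-cell embryos and at 20.9 and 7.46 in cKO 2-cell embryos. It rose at least 9.72-fold in WT and at least 14.2-fold in cKO embryos (log2 fold change 2.77, SE 0.45, adjusted p = 0.00264). Kdm5d, carried on the Y chromosome, was at the floor in all 4 zygote libraries, at 1.805 and 1.57 FPKM in WT 2-cell embryos and at 1.04 and 1.00 in cKO 2-cell embryos, and the makeup of the pools by sex is not given in the sources used here. The WT call of Kdm5d was lost after median-ratio scaling. Kdm5c, its X-linked counterpart, went from 3.79 and 4.57 to 2.86 and 2.82 FPKM in WT and was not called.

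Of the 2 H3 lysine 27 demethylases, both abundant in zygotes, 1 was called lower in WT, against 15.5% of all genes. Kdm6a was at 34.8 and 58.7 FPKM in WT zygotes, 37.8 and 54.6 in cKO zygotes, 16.2 and 13.5 in WT 2-cell embryos and 19.8 and 12.97 in cKO 2-cell embryos, and fell 3.15-fold in WT (log2 fold change -1.55, SE 0.35, adjusted p = 0.012). Kdm6b was at 42.2 and 41.8 FPKM in WT zygotes, 46.6 and 54.5 in cKO zygotes, 21.4 and 25.9 in WT 2-cell embryos and 10.6 and 1.19 in cKO 2-cell embryos. It was not called in WT and was called lower in cKO embryos (log2 fold change -3.35, SE 0.71, adjusted p = 0.0084), where replicate 2 is near the floor. Kdm2a, the H3 lysine 36 demethylase, was at 2.499 and 2.76 FPKM in WT zygotes, 2.45 and 2.704 in cKO zygotes, 6.56 and 4.11 in WT 2-cell embryos and 4.42 and 2.45 in cKO 2-cell embryos, and was not called in any comparison.

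Among the deacetylases, Hdac1 and Hdac2, which form the catalytic core of the same complexes, were the deacetylases with the highest WT mean at the 2-cell stage and in the zygote, respectively. Hdac1 was at 4.48 and 2.43 FPKM in WT zygotes, 2.59 and 2.12 in cKO zygotes, 117 and 147 in WT 2-cell embryos and 175 and 94.4 in cKO 2-cell embryos. It rose 38.2-fold in WT (log2 fold change 4.93, SE 0.37, adjusted p = 0.00022) and 57.3-fold in cKO embryos, the largest called change in both (log2 fold change 5.28, SE 0.37, adjusted p = 0.000149 in cKO). With 132 ± 21.5 FPKM in WT 2-cell embryos it exceeded the next members, Prmt2 and Sirt1 with 49.7 ± 14.1 and 48.5 ± 9.57, by more than their SDs. Hdac2 was at 66.2 and 53.5 FPKM in WT zygotes, 63.2 and 52.9 in cKO zygotes, 25.3 and 47.7 in WT 2-cell embryos and 25.2 and 14.04 in cKO 2-cell embryos, not called in WT and lower in cKO embryos (log2 fold change -1.57, SE 0.39, adjusted p = 0.0159). Hdac1 lies on chromosome 4 of mm9 from 129193348 to 129219957, and 3 near-identical copies of its coding sequence could share its reads. Hdac3, the catalytic subunit of the NCoR complex, was at 3.84 and 4.299 FPKM in WT zygotes, 3.39 and 4.12 in cKO zygotes, 1.66 and 3.38 in WT 2-cell embryos and 1.21 and 1.00 in cKO 2-cell embryos. It was called lower in cKO embryos (log2 fold change -1.17, SE 0.26, adjusted p = 0.00978) and not in WT (log2 fold change -0.57, SE 0.26, adjusted p = 0.119), and whether the changes differ was not called by the interaction. Hdac8 was not called in WT.

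The class II and IV deacetylases were low, and 5 of the 6 had no value above 5.16 FPKM. Hdac6, the cytoplasmic tubulin deacetylase, was at 4.75 and 4.21 FPKM in WT zygotes, 3.14 and 4.102 in cKO zygotes, 11.5 and 11.7 in WT 2-cell embryos and 5.79 and 8.096 in cKO 2-cell embryos, and was called higher in WT (log2 fold change 1.20, SE 0.25, adjusted p = 0.00838) and in cKO embryos (log2 fold change 0.77, SE 0.25, adjusted p = 0.0402). The WT call was lost after median-ratio scaling and without WT zygote replicate 2, and the cKO call held in only 4 of 15 alternatives. Hdac10, a polyamine deacetylase, was called higher in WT from the floor to 2.63 and 2.28 FPKM, but not after median-ratio scaling. Hdac4, Hdac5, Hdac9 and Hdac11 were not called in any comparison.

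Of the 7 sirtuins, the NAD-dependent deacylases, Sirt1 rose and Sirt5 fell in WT embryos. Sirt1 was at 5.48 and 12.04 FPKM in WT zygotes, 7.602 and 12.9 in cKO zygotes, 55.3 and 41.8 in WT 2-cell embryos and 139 and 64.9 in cKO 2-cell embryos. It rose 5.54-fold in WT (log2 fold change 2.42, SE 0.51, adjusted p = 0.00884) and 9.97-fold in cKO embryos (log2 fold change 3.14, SE 0.51, adjusted p = 0.00269). Sirt5, a mitochondrial enzyme, fell from 5.36 and 4.05 to 1.83 and 2.05 FPKM in WT. Sirt6, at 32.9 and 15.8 FPKM in WT zygotes and 7.32 and 8.36 in WT 2-cell embryos, was 3.10-fold lower by its means but was not called (log2 fold change -1.43, SE 0.72, adjusted p = 0.148).

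Of the writers of acetylation in the GNAT and p300/CBP families, 2 of 4 were called higher in WT and 0 lower, against 34.2% and 15.5% of all genes. Of the 2, Kat2b started at the floor and could only rise, so its call is no support for a direction. Kat2b (PCAF) was at the floor in all 4 zygote libraries, at 13.6 and 10.2 FPKM in WT 2-cell embryos and at 23.5 and 23.8 in cKO 2-cell embryos, and rose at least 11.9-fold in WT (log2 fold change 2.68, SE 0.22, adjusted p = 0.000267) and at least 23.6-fold in cKO embryos. Its paralogue Kat2a (GCN5) was at 5.196 and 3.35 FPKM in WT zygotes, 2.88 and 2.85 in cKO zygotes, 17.5 and 19.1 in WT 2-cell embryos and 17.6 and 7.43 in cKO 2-cell embryos, and rose 4.28-fold in WT (log2 fold change 1.89, SE 0.41, adjusted p = 0.00982). The paralogous coactivators Crebbp (CBP) and Ep300 (p300) were not called in any comparison. Crebbp was at 29.9 and 28.8 FPKM in WT zygotes, 26.5 and 27.7 in cKO zygotes, 32.6 and 33.9 in WT 2-cell embryos and 25.04 and 2.36 in cKO 2-cell embryos. Ep300 was at 4.09 and 4.84 FPKM in WT zygotes, 3.67 and 4.13 in cKO zygotes, 12.7 and 12.5 in WT 2-cell embryos and 35.2 and 4.54 in cKO 2-cell embryos. In both, the WT replicates at each stage are close and the cKO 2-cell replicates are over 7-fold apart. Kat2b has 1 near-identical copy of its coding sequence.

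The 5 MYST acetyltransferases had 0 calls in any comparison. Of all genes, 34.2% were called higher and 15.5% lower across the stages in WT, and 24.6% and 27.1% in cKO embryos. Between the 2-cell genotypes, 6.16% were called higher and 24.6% lower. After median-ratio scaling, 1 of the 5 was called lower across the stages in WT, against 19.0% of all genes. In cKO embryos it was also 1, against 3480 of all 14392 genes. Myst1, which acetylates H4 lysine 16, was at 26.4 and 20.4 FPKM in WT zygotes, 29.7 and 23.2 in cKO zygotes, 27.4 and 18.03 in WT 2-cell embryos and 32.2 and 24.8 in cKO 2-cell embryos. Myst2 lay between 12.0 and 28.7 FPKM and Myst3 between 3.37 and 10.3 over the 8 libraries. The class as a whole summed to 78.6 to 90.4 FPKM in zygotes, to 83.4 and 76.1 in WT and to 101.3 and 54.7 in cKO 2-cell embryos.

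From cKO zygotes to cKO 2-cell embryos, 19 members were called higher and 16 lower, or 27.5% and 23.2%, against 24.6% and 27.1% of all genes. Past 3-fold were 19 higher and 10 lower, against 22.8% and 19.2% of all genes. Among the higher, Kdm4c rose at least 18.9-fold (log2 fold change 3.30, SE 0.21, adjusted p = 0.000121), Kat2b at least 23.6-fold (log2 fold change 3.62, SE 0.22, adjusted p = 0.000104), Kdm3a at least 23.5-fold (log2 fold change 3.59, SE 0.24, adjusted p = 0.000126), Kdm5b 28.4-fold (log2 fold change 4.10, SE 0.62, adjusted p = 0.00211) and Suv420h1 10.9-fold (log2 fold change 3.08, SE 0.48, adjusted p = 0.00229). Among the lower, Setd4 fell 16.8-fold (log2 fold change -3.76, SE 0.36, adjusted p = 0.000381) and Setd6 7.83-fold (log2 fold change -2.66, SE 0.23, adjusted p = 0.00025). Suv39h2 fell 3.80-fold, Nsd1 4.30-fold, Prmt2 5.93-fold and Kdm1b 4.77-fold. The calls include 8 of the 15 members at the floor in all zygote libraries, which could only rise, and 1152 of the 3770 such genes in the table. Without replicate 1 of the cKO 2-cell group, 20 members were called higher and 29 lower, against 29.2% and 29.5% of all genes. Without replicate 2, 30 were called higher and 13 lower, against 30.9% and 25.7%.

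Between cKO and WT 2-cell embryos, the comparison asks how these enzymes stand in embryos that lacked maternal USP16 once ZGA has begun. Of the 69 members, 4 were called higher and 13 lower, or 5.8% and 18.8%, against 6.16% and 24.6% of all genes. Past 3-fold were 0 members higher and 5 lower, against 2.84% and 13.5%. The cKO libraries lay entirely above the WT libraries for 9 members and entirely below for 28, against 14.0% and 43.4% of all genes. The enzymes thus followed the table as a whole, in which lower values prevailed. The median log2 fold change was -0.41 over the members and -0.30 over all genes, and both were 0 after median-ratio scaling, which gave 4 members higher and 5 lower, against 9.98% and 12.1% of all genes. All 9 had been called in the same direction before.

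The calls of this comparison rest on a spread shared by all 4 groups, which includes the near-zero spread of genes at the floor in zygotes. Of the 17 called members, 8 were at the floor in all 4 zygote libraries. With a weight for each group, common to all genes, 0 members were called higher and 2 lower, Suv420h2 and Kdm4d, against 0.834% and 5.93% of all genes. Each gene still has a single spread pooled over the 4 groups in that fit. Both genes were at the floor in all 4 zygote libraries, so the weights do not remove this limit for them. In a fit of the 4 2-cell libraries alone, 0 members were called in either direction. The share of all genes called in that fit is not given here, so this count does not set the members apart.

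**Figure D3:**
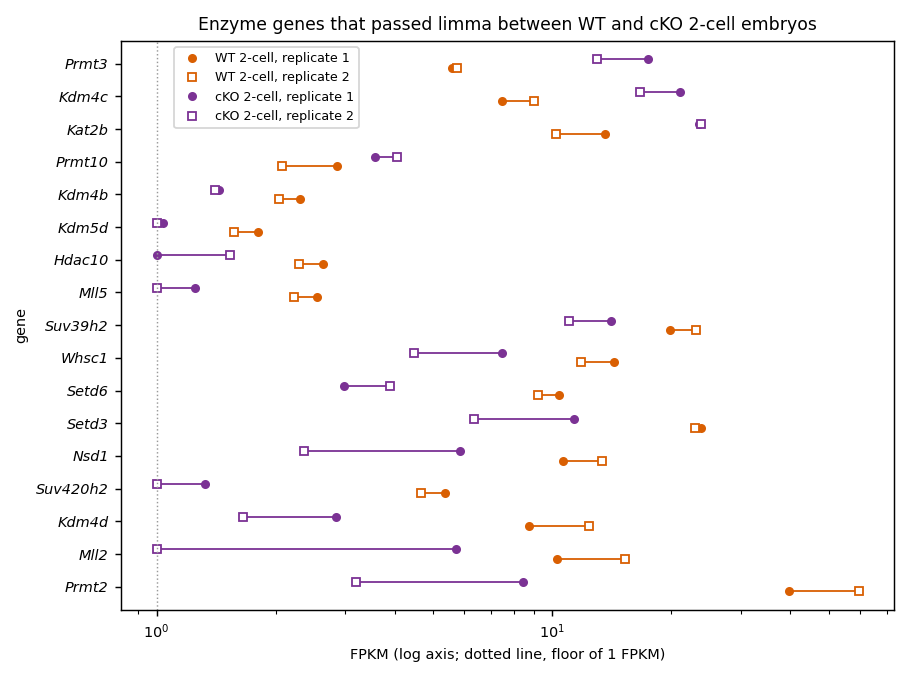
FPKM on a log axis of the 17 enzyme genes that passed limma between WT (orange) and cKO (purple) 2-cell embryos, with replicate 1 as filled circles and replicate 2 as open squares joined by a line. The 4 genes at the top were higher and the 13 below were lower in cKO embryos. The purple lines of Mll2, Nsd1 and Prmt2 are long, since the cKO replicates differ.

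Suv420h2 had the smallest p. It was at 5.37 and 4.65 FPKM in WT and at 1.33 and 1.00 in cKO 2-cell embryos, 4.31-fold lower by the means (log2 fold change -1.48, SE 0.11, adjusted p = 0.00111). With a weight for each group the adjusted p was 0.00853, and after median-ratio scaling 0.000901. The other H4 lysine 20 methyltransferases were not called, and Suv420h1 was at 34.2 and 28.9 FPKM in WT and 39.5 and 116 in cKO embryos.

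Kdm4d was at 8.74 and 12.4 FPKM in WT and at 2.84 and 1.65 in cKO 2-cell embryos, 4.70-fold lower (log2 fold change -1.84, SE 0.24, adjusted p = 0.00411). With a weight for each group the adjusted p was 0.0242. Its relative Kdm4c, at 7.47 and 8.99 FPKM in WT and 21.1 and 16.7 in cKO embryos, was 2.29-fold higher (log2 fold change 1.10, SE 0.21, adjusted p = 0.013), which was not called with a weight for each group, at an adjusted p of 0.0869. The 2 demethylases, both of which act on H3 lysine 9 and lay at the floor in zygotes, thus differed in opposite directions. Kdm4b was lower too, at 1.44 and 1.41 against 2.31 and 2.04 FPKM, a call lost after median-ratio scaling.

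Prmt2 showed the largest difference, 8.54-fold lower in cKO embryos, with 39.8 and 59.7 FPKM in WT and 8.45 and 3.20 in cKO libraries (log2 fold change -2.98, SE 0.44, adjusted p = 0.00586). The call was lost with a weight for each group, at an adjusted p of 0.0569. Prmt3 was 2.68-fold higher, with 5.58 and 5.74 FPKM in WT and 17.4 and 13.0 in cKO libraries (log2 fold change 1.27, SE 0.24, adjusted p = 0.0117). Prmt10 was also called higher, at an adjusted p of 0.045, but in only 3 of 15 alternatives. Prmt5 and Prmt6 were not called, with differences of 0.04 (SE 0.24) and 0.22 (SE 0.28) on the log2 scale.

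The remaining lower members with a SET domain were Mll2, Mll5, Nsd1, Whsc1, Suv39h2, Setd3 and Setd6. Mll2 was 3.80-fold lower, at 10.3 and 15.3 FPKM in WT and 5.71 and 1.00 in cKO embryos (log2 fold change -1.89, SE 0.56, adjusted p = 0.0487), and was called in only 2 of 15 alternatives. Nsd1 was at 5.85 and 2.35 FPKM in cKO against 10.6 and 13.4 in WT embryos (log2 fold change -1.43, SE 0.36, adjusted p = 0.0284), and Whsc1 at 7.46 and 4.47 against 14.3 and 11.8 (log2 fold change -1.04, SE 0.27, adjusted p = 0.0322). These 2 writers of H3 lysine 36 dimethylation were called in 6 of 15 alternatives each, as was Suv39h2. Setd3 (log2 fold change -1.36, SE 0.28, adjusted p = 0.016) and Setd6 (log2 fold change -1.29, SE 0.23, adjusted p = 0.00969) had all cKO values below the WT values. Their calls were lost with a weight for each group.

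Among the other enzymes, the counts stand against 6.16% of all genes called higher and 24.6% lower. Of the 17 deacetylases, 0 were higher and 1 was lower, Hdac10, whose cKO values were 1.00 and 1.53 FPKM. Of the 9 acetyltransferases, 1 was higher, Kat2b, at 23.5 and 23.8 FPKM in cKO against 13.6 and 10.2 in WT embryos, 1.99-fold higher by the means (log2 fold change 0.95, SE 0.22, adjusted p = 0.0222). Of the 15 demethylases, 1 was higher and 3 lower, the third being Kdm5d, at 1.04 and 1.00 against 1.80 and 1.57 FPKM. Kdm6b was past 3-fold, 4.00-fold lower by the means, but missed the threshold (log2 fold change -2.28, SE 0.71, adjusted p = 0.0558), with cKO replicates at 10.6 and 1.19 FPKM.

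The difference between the genotypes was then compared between the stages with the interaction of genotype and stage. It was called for 0 members in the higher and 4 in the lower direction, against 1.58% and 10.2% of all genes. These were Suv420h2 (log2 fold change -1.48, SE 0.16, adjusted p = 0.0083), Mll5 (log2 fold change -1.21, SE 0.17, adjusted p = 0.0153), Kdm4d (log2 fold change -1.84, SE 0.34, adjusted p = 0.0264) and Kdm5d (log2 fold change -0.41, SE 0.09, adjusted p = 0.0409). For Suv420h2, Kdm4d and Kdm5d all zygote libraries were at the floor, so that the interaction equals the 2-cell difference. Mll5 was above WT in cKO zygotes and below WT in cKO 2-cell embryos. None of the 4 was called when any 1 zygote library was left out.

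In the members, the cKO 2-cell replicates differed mostly in one direction. Replicate 2 was below both WT 2-cell libraries for 52 members and above both for 10, while replicate 1 was below both for 28 and above both for 27. Over all genes, replicate 2 was more than 3-fold lower than replicate 1 for 1114 and higher for 798. Shares over all genes for the positions against WT are not given, so these counts are not read as a trait of the members. For 15 members replicate 1 was above and replicate 2 below both WT libraries, namely Ehmt1, Ep300, Hdac1, Kdm3b, Kdm4a, Kdm5a, Kdm5b, Kdm6a, Myst4, Prmt7, Setd2, Setd5, Setd8, Sirt6 and Sirt7. The group mean of such a gene hides both deviations, as for Ep300, with 35.2 and 4.54 FPKM against 12.7 and 12.5 in WT, and for Ehmt1, with 22.1 and 4.60 against 4.89 and 6.62. Without replicate 1, 5 members were called higher and 31 lower between the genotypes, against 11.9% and 33.1% of all genes. Without replicate 2, 12 were called higher and 15 lower, against 11.5% and 26.0%.

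The ratio of the replicates went with transcript length. Among members whose longest annotated transcript exceeds 5000 bases, 12 of 26 were more than 3-fold lower in replicate 2, with a median log2 ratio of -1.49. Over 3000 and up to 5000 bases it was 3 of 22, with a median of -0.71, and up to 3000 bases 1 of 19, with a median of -0.41. Of all genes, 14.5%, 11.1% and 7.68% were lower by this much in these bins. Across 67 members above the floor in at least 1 replicate, the Pearson coefficient of the log2 ratio with log length was -0.40 and the Spearman coefficient -0.42, and over 11272 genes -0.28 for both. In WT zygotes the coefficients over members were 0.46 and 0.56, in cKO zygotes 0.45 and 0.48, and in WT 2-cell embryos 0.15 and 0.09. Genes share a library and are not independent, so no p is given. Mll2, with the longest transcript at 19805 bases, Crebbp at 7507, Dot1l at 6808 and Kdm6b at 6654 were all at or below 2.36 FPKM in replicate 2. Other members with long transcripts were not this low, such as Mll3 (16901 bases) at 9.13 FPKM and Setd2 (8350 bases) at 21.6. Suv420h1 (6130 bases) was higher in replicate 2, at 116 FPKM against 39.5 in replicate 1. The part of transcript length in the differences between the genotypes was not tested.

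**Figure D4:**
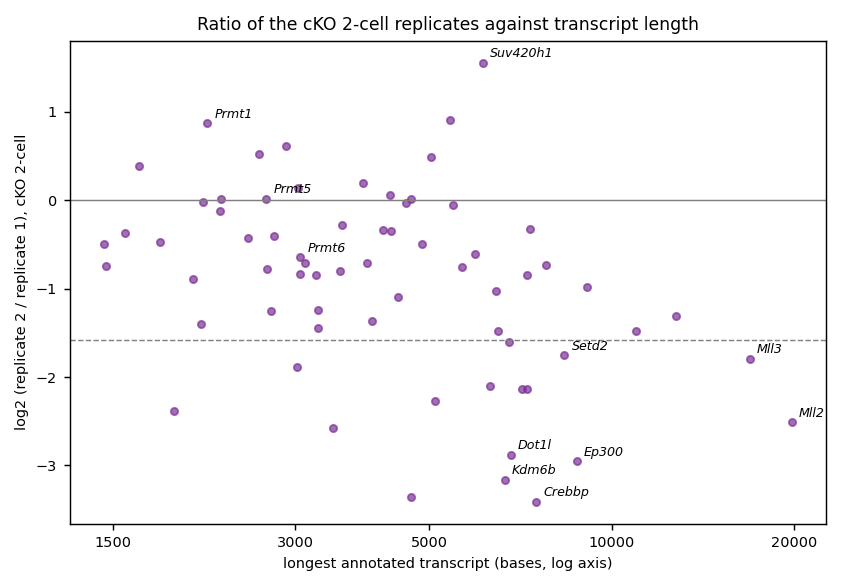
Log2 ratio of cKO 2-cell replicate 2 to replicate 1 (vertical axis) against the longest annotated transcript in bases (horizontal log axis) for the 67 members above the floor in at least 1 replicate, each point a gene. The dashed line marks a 3-fold lower value in replicate 2. The 16 points below it include 12 genes with transcripts over 5000 bases, and Suv420h1 is the highest point.

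Partner proteins and enzymes outside the symbol rule were counted from lists chosen with earlier results known. Their counts stand against 34.2% of all genes called higher and 15.5% lower from WT zygotes to WT 2-cell embryos, and 6.16% and 24.6% in cKO against WT 2-cell embryos, and whether a list differs from other genes was not tested. Of 22 listed histone-modifying enzymes with other symbols, 7 were called higher and 4 lower from WT zygotes to WT 2-cell embryos, and 2 higher and 2 lower in cKO against WT 2-cell embryos. Smyd5 rose in WT from 2.22 and 1.81 to 12.9 and 12.3 FPKM. Hat1, the acetyltransferase of new histone H4, was at 53.8 and 39.8 FPKM in WT and 91.1 and 109.6 in cKO 2-cell embryos. Phf8, a demethylase, was lower in cKO, at 3.28 and 1.37 against 6.51 and 6.02.

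Of 15 listed partners of methyltransferases, 3 were called higher and 3 lower in WT across the stages, and 1 higher and 2 lower in cKO 2-cell embryos. Wdr77, the obligate partner of Prmt5, rose from the floor in all 4 zygote libraries to 46.0 and 71.8 FPKM in WT and to 130.1 and 51.5 in cKO 2-cell embryos. Clns1a, another Prmt5 partner, was at 50.6 and 54.5 FPKM in WT and at 152 and 120.0 in cKO 2-cell embryos, and was called higher. Rbbp5 and Dpy30, core subunits of the H3 lysine 4 methyltransferase complexes, fell in WT, Rbbp5 from 42.3 and 38.3 to 3.97 and 4.25 FPKM and Dpy30 from 1118 and 1248 to 282 and 221.

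Of 25 listed subunits of deacetylase complexes, 4 rose and 3 fell in WT, and 1 was higher and 4 were lower in cKO 2-cell embryos. Mta2 of the NuRD complex rose from the floor to 50.0 and 58.9 FPKM in WT, beside Hdac1, while Rbbp7, a histone chaperone of several such complexes, fell from 1958 and 1731 to 264 and 238. Sap30 of the Sin3 complex was higher in cKO embryos, at 404 and 496 against 153 and 166 FPKM. Of 32 listed subunits of acetyltransferase complexes, 8 rose and 4 fell in WT, and 0 were higher and 9 lower in cKO 2-cell embryos, or 28.1% lower. After median-ratio scaling 1 was higher and 4 were lower. Yeats4, a reader subunit of TIP60 and SRCAP, was at 115 and 172 FPKM in WT and at 44.0 and 23.5 in cKO 2-cell embryos, and Tada3, of the GCN5 complexes, at 12.3 and 8.31 against 3.85 and 2.00.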

How the data were processed

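Poly(A) RNA of 8 pools of 10 embryos was sequenced after Smart-seq2 amplification. The authors trimmed reads to 50 bases, aligned them to mm9 with TopHat2 2.1.1, and deposited normalized FPKM from Cufflinks 2.2.1, leaving out genes under 1 FPKM in all libraries and setting lower values to 1. The annotation and the further normalization are not given in the sources used here. The table holds no counts, so depth is unknown. The 7 chromatin immunoprecipitation samples were not analysed here.

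Groups were taken from the sample labels. Nothing states how the 2 libraries of a group are related beyond being separate samples, so p-values measure only the spread between them. All 14392 genes were fitted on log2(FPKM + 1) with limma 3.58.1 in R 4.3.3, with 4 group means, moderated variances with a trend, 4 degrees of freedom left for the spread, and p adjusted by Benjamini and Hochberg's method at 0.05. The procedure was run on simulated data with WT 2-cell means in every library and a common spread taken without the cKO 2-cell libraries. That setting covers neither the spread of the cKO 2-cell group nor genes at the floor in zygotes only. Alternatives were the pseudocount, a filter of 3 FPKM in 2 libraries, median-ratio and sum scaling, a weight for each group common to all genes, a replicate block, a fit of 2 groups, and leaving out each library. Values in every library are given for the most abundant member of each of 17 classes and for members called and past 3-fold. Full statistics are given for the 10 largest called changes without overlap in each comparison, or for the 3 smallest p-values. Further members and list genes were named after their values were seen. Coordinates and transcript lengths are from GENCODE gene models on mm9, near-identical copies from minimap2 2.31 (at least 50% of the coding length at 95% identity), and promoters from RefSeq. The members and lists, which were enzymes outside the symbol rule, methyltransferase partners, deacetylase and acetyltransferase complex subunits and the 3 marker lists, were chosen with earlier results of these data known.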

Additional observations from a re-analysis of the deposited data

Results flagged for a closer look

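Limma's interaction of genotype and stage was called for 4 enzyme genes, all in the lower direction, or 5.8%, against 10.2% of all genes. For Kdm4d, Kdm5d and Suv420h2 all zygote libraries were at the floor. No zygote difference could be seen for them, and the interaction equals the 2-cell difference. The value was -1.84 for Kdm4d, -0.41 for Kdm5d, -1.21 for Mll5 and -1.48 for Suv420h2 on the log2(FPKM + 1) scale. In each, both cKO 2-cell libraries were below both WT 2-cell libraries. Each call was lost when any 1 zygote library was left out, and that of Kdm5d also with a weight for each group, with a replicate block and after median-ratio scaling, where the interaction was -0.07 with an adjusted p of 0.556.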

How the results depend on the processing

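No called member reversed its direction in any alternative. Of members that were not called, median-ratio scaling changed the sign of 4 in the WT transition, 3 in the cKO transition, 1 between zygotes and 9 between the 2-cell genotypes. No count of members moved between cKO and WT zygotes, where 0 were called in all. Median-ratio scaling gave 13 lower from WT zygotes to WT 2-cell embryos and 5 lower in cKO against WT 2-cell embryos. The shares of all genes were 19.0% and 12.1%. It also gave 2 interactions in the higher direction, against 449 of all 14392 genes, and 5 members past 3-fold higher in cKO 2-cell embryos. Sum scaling gave 0 higher in cKO 2-cell embryos, against 552 of all genes, and 7 lower interactions. A weight for each group gave 9 lower in the cKO transition, against 2623 of all genes. Between the 2-cell genotypes it gave 0 higher and 2 lower, against 0.834% and 5.93% of all genes. A fit of only the groups compared gave 12 higher and 9 lower in the cKO transition and 0 in either direction between the 2-cell genotypes. With a 2-fold threshold, 26 members were higher in WT across the stages, 16 lower in the cKO transition, and 6 higher and 15 lower in cKO 2-cell embryos. When every library had to pass 3-fold, 1 was lower in the WT transition and 3 in cKO 2-cell embryos. Counts without a share of all genes beside them do not set the members apart from the table as a whole.

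Leaving out 1 library at a time gave 18 to 32 higher and 5 to 13 lower in the WT transition, 13 to 30 higher and 10 to 29 lower in the cKO transition, and 0 between zygotes. Between the 2-cell genotypes it gave 2 to 12 higher and 9 to 31 lower, and for the interaction 0 to 8 higher and 0 to 27 lower. The largest counts came without a cKO 2-cell library. Past 3-fold it gave 17 to 18 higher and 4 to 6 lower in the WT transition, 14 to 20 higher and 9 to 19 lower in the cKO transition, and 0 to 5 higher and 4 to 12 lower in cKO 2-cell embryos. Shares of all genes are given above only for leaving out a cKO 2-cell library, so these ranges do not set the members apart from the table as a whole. The causes were not tested.

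A replicate block gave 24 higher and 7 lower in the WT transition, 19 and 16 in the cKO transition, 0 and 0 in zygotes, 3 and 13 between the 2-cell genotypes and 0 and 3 for the interaction. Same-numbered libraries deviated together in zygotes (correlation 0.50) but not at the 2-cell stage (-0.24), so the numbers were not taken as a pairing. With the cKO 2-cell numbers crossed, an alternative chosen after seeing the data, the block gave 23 and 7, 19 and 15, 0 and 0, 4 and 14, and 0 and 3. Shares of all genes under either block are not given here.

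With 2 pools a group and values floored at 1 FPKM, small differences and levels under the floor were not detectable. FPKM are shares of a library and give no absolute amounts.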
